A study of Mus musculus with 8 samples.

Results

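Interferon-stimulated genes were examined in common myeloid progenitors (CMPs), the bone marrow progenitors of the myeloid lineages, which had been sorted from young and old mice. The list held 49 genes of 34797 gene names on the array. The other members were chosen by name as known interferon-stimulated genes, after earlier results of these data had been seen. H28 entered the list because its probe had been called higher in old CMPs in the same comparison of these arrays. The change of H28 is therefore given as a description, with no test, and the question put to the data was whether the other members differed with age alongside it. All 49 members were found by gene name, on 70 of the 55681 probes that were not controls, and 29 members had a single probe.

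All mice were wildtype C57BL/6J, untreated and kept free of pathogens. The labels give an age of 2 to 3 months for the young group and 22 to 24 months for the old group, whereas the description of the series gives slightly different ranges. Each group had 4 arrays, named here by age and by the number in the label, young 3 to 6 and old 2 to 5. The sort took cells that lacked lineage markers and Sca-1, carried cKit and CD34 and were low for Fc gamma receptors. According to the study, the cells of each mouse were analysed on their own. It names fewer mice per age than there are arrays and does not say which ones, so all 8 were used. Signals are Agilent intensities given on a log2 scale relative to the 75th percentile of each array, so that a value of 0 equals that percentile and a difference of 1 is a 2-fold difference. A gene was called if a probe passed an adjusted p of 0.05 in limma over all tested probes together with a difference of at least 1.5-fold.

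Interferons are secreted proteins that warn cells of viruses. Type I interferons bind the receptor pair Ifnar1 and Ifnar2 and act through JAK kinases on factors that include Stat2 and Irf9, which bind a DNA motif called the interferon-stimulated response element. Interferon gamma, the type II interferon, binds Ifngr1 and Ifngr2 and acts on a motif called the gamma-activated site. In the bone marrow, interferons are known to drive stem cells out of rest, and stem and progenitor cells hold a basal level of many interferon-stimulated genes.

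H28 encodes a minor histocompatibility antigen and is listed as Ifi44l in RefSeq, next to its relative Ifi44. Each had 1 probe on the array, and the start of each probe is shown because these 60 bases carry the whole measurement of the gene. The H28 probe lay at chr3:151422427-151422486 and the Ifi44 probe at chr3:151394035-151394094, both on the minus strand of mm9, 28.4 kb apart. The first 30 bases of each probe were:
H28: gagcaatctggggattggcacatgctgctg
Ifi44: atgaattcattaagagagtagtgagagaac

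Promoter sequences of 250 bases before the gene start were taken from RefSeq (GRCm38.p6) for 4 genes whose values are described in detail. H28 and Ifi44 are shown as neighbours, and Isg15 as a gene with a classical response element. Igtp is shown for the largest difference by age in the class of interferon-inducible GTPases described below. Capitals mark the core of the interferon-stimulated response element, GAAA and GAAA with any 2 bases between them, and the core of the gamma-activated site, TTCNNNGAA, where N is any base. Both strands were searched. The windows were chr3:151762892-151763141 (minus strand) for H28, chr3:151749911-151750160 (minus) for Ifi44, chr4:156200819-156201068 (minus) for Isg15 and chr11:58199306-58199555 (plus) for Igtp.
H28: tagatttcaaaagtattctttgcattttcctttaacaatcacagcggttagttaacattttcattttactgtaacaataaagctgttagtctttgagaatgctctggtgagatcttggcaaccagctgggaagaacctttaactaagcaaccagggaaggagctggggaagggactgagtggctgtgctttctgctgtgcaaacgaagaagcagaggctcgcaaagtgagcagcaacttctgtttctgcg
Ifi44: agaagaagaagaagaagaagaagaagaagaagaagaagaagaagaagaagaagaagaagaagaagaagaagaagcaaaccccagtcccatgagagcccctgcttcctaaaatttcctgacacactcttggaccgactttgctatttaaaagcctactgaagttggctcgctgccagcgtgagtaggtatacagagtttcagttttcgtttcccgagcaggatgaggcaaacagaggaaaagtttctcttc
Isg15: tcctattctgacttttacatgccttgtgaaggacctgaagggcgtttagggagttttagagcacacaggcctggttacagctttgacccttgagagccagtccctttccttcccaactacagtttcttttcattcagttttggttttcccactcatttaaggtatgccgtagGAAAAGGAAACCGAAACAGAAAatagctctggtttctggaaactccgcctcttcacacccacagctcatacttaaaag
Igtp: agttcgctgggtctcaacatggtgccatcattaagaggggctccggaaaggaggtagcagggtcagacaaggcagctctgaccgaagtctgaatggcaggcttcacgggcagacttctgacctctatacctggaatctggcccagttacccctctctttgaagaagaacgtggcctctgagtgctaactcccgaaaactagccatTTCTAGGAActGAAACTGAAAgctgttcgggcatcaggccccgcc
The Isg15 window held 3 overlapping matches to the response element, the first at position -78 from the start. The Igtp window held 1 match to the response element, at position -34, and 1 to TTCNNNGAA. Neither motif, as spelled here, occurred in the H28 or the Ifi44 window.

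Promoters, each from 250 bases before to 50 bases after the start, were given for 38 of the 49 members. Only the 250 bases before the start were searched, in the members and in all genes alike. The response element occurred in 14 of these 38, or 36.8%, against 936 of 27025 genes in the whole table, or 3.46%. TTCNNNGAA occurred in 8 of 38, or 21.1%, against 8.13% of all genes. A match is a description of letters and no evidence that a factor binds there.

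H28 signal was at the background of the scanner in young CMPs and low but measurable in old CMPs. Its log2 signal was -7.07, -7.25, -6.25 and -7.04 on young arrays 3 to 6 and -4.45, -4.26, -4.25 and -3.43 on old arrays 2 to 5. In these processed values all 4 old arrays exceeded all 4 young arrays, and old array 5 was the highest. Before background correction, the mean spot signals were 41.5, 47.1, 63.8 and 53.1 in young and 78.1, 66.6, 59.4 and 90.2 in old mice. By that measure young array 5 exceeded old array 4, with local backgrounds of 29 and 35. The probe was well above background on 0 of 4 young and 4 of 4 old arrays. On a linear scale, the processed intensities were 3.11, 3.72, 4.63 and 3.89 in young mice and 23.7, 18.5, 15.2 and 39.2 in old mice. On young arrays 3, 4 and 6, the scanner software had replaced the measured intensity with a surrogate value, which it does where a spot cannot be told from background. H28 was the only member whose tested probe held a surrogate on any array.

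Because no young array measured H28 above background, only an approximate lower bound is given for its difference. When each young array was set to its lowest signal well above background, old CMPs had at least 1.80-fold higher H28 signal. The bound was 1.95-fold after scaling to the median, 1.94-fold after quantile normalization and 1.40-fold after normexp background correction. The group means of the log2 signal, computed from the deposited intensities, were -6.90 ± 0.44 for the young and -4.10 ± 0.45 for the old arrays (SD, n = 4 each). This is a difference of 2.80 that depends on how background intensities were set. With normexp, which here added an offset of 50 to every spot, this difference was 0.61. Under that correction H28 did not stand apart by size, as Isg20 differed by 0.72, Xaf1 by 0.61 and Igtp by 0.61. The arrays lay on 2 slides with 2 arrays of each age on either, and the H28 difference was 2.81 within slide 1 and 2.80 within slide 2.

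Ifi44, the neighbouring gene of the same family, did not share this pattern. Its log2 signal was -3.01, -3.06, -4.21 and -4.27 on the young arrays and -3.95, -3.72, -3.80 and -4.13 on the old arrays. The old arrays lay within the range of the young arrays, where arrays 3 and 4 were high and arrays 5 and 6 low. The difference was -0.26 (95% interval -0.97 to 0.45, adjusted p = 0.998 in limma). It was -0.84 within slide 1 and 0.32 within slide 2. Other probes within 200 kb of the H28 probe were one of Ptgfr, a prostaglandin receptor gene, which was well above background on 0 of 8 arrays, and the unnamed probe A_55_P1993385, which was so on 1 young array.

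**Figure D1:**
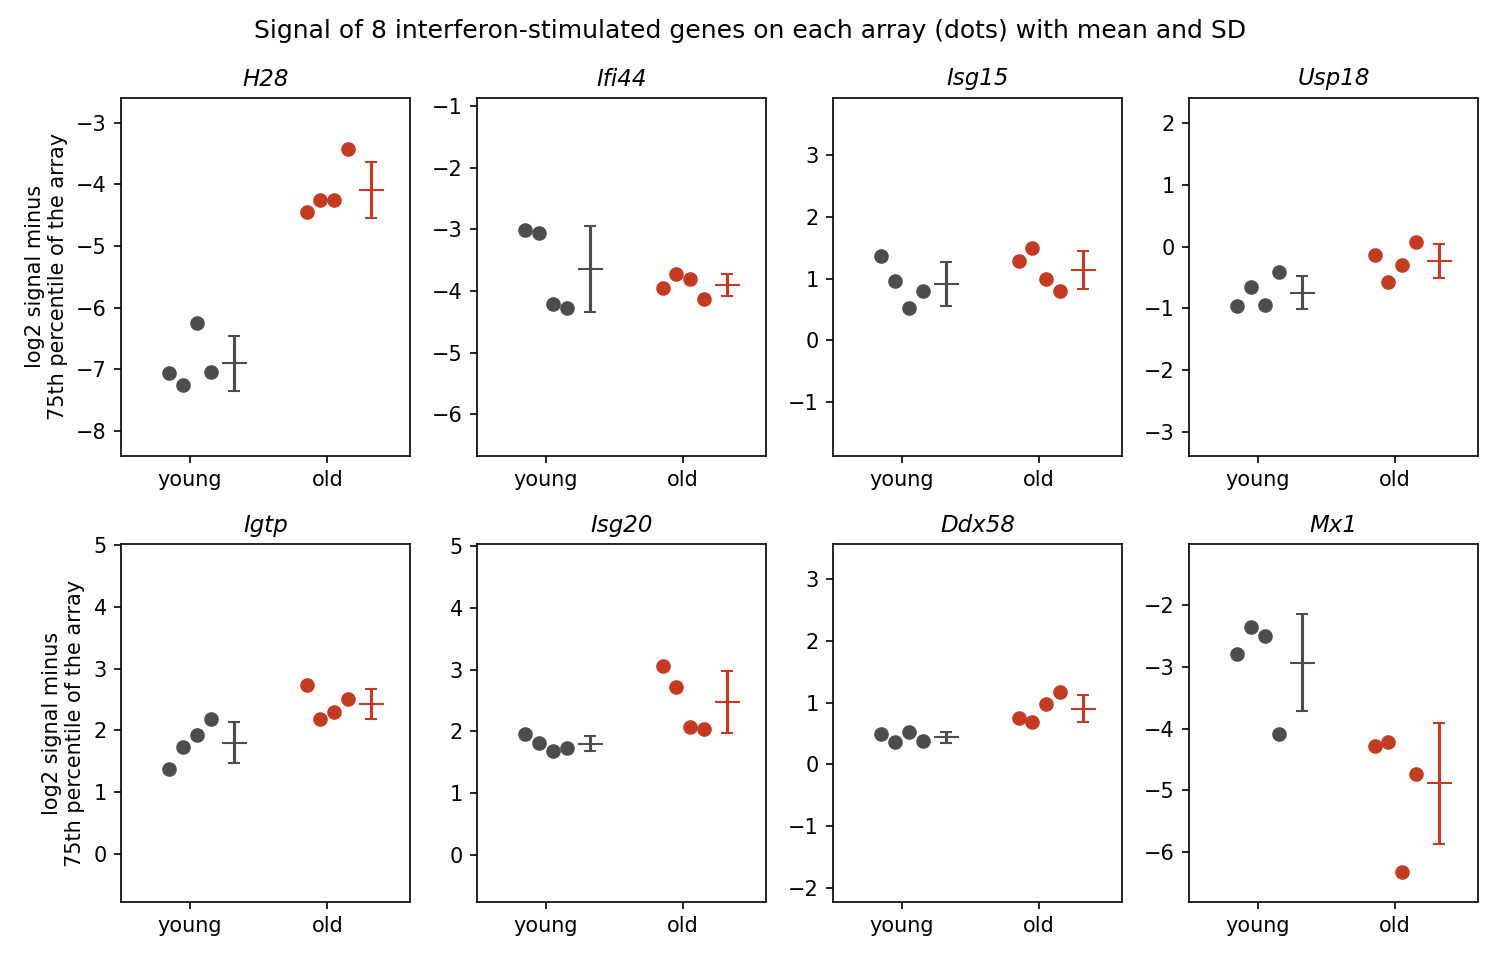
Log2 signal minus the 75th percentile of the array for 8 genes, with 4 young (grey) and 4 old (red) arrays as dots and the mean with SD beside them. All panels span the same range of log2 units. H28 lies between -7.25 and -6.25 in young and between -4.45 and -3.43 in old CMPs, Mx1 runs the other way, and for Ifi44, Isg15 and Usp18 the ages overlap.

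Of the 49 members, 47 had a probe that rose well above background on 4 or more arrays and were tested, and 42 had one that was well above background on all 8. Among the tested members, 1 was called higher in old CMPs, or 2.13% of the 47, against 0.207% of the 23155 gene names tested. This was H28, whose probe passed the filter through the old group, where it was high. Its call and this share are therefore a description and no support for a rise. In bulk RNA, more cells with a transcript and more transcript per cell cannot be told apart. No member was called lower by limma (0 of 47), against 0.0432% of all gene names, and 2 members, Mx1 and Gbp3, were lower at an unadjusted p under 0.05, against 3.41% of all gene names. Since H28 was listed for its call, the count that describes the rest of the list is 0 called of 46.

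Differences of the other members lay more often above 0 than below, and ranged from -1.96 for Mx1 to 0.68 for Isg20, each by its brightest probe. These counts describe a list that was put together with results of these arrays known. Of the 46, 29 had a difference above 0. Over all 47 tested members 63.8% were above 0, against 47.6% of all tested genes. The median difference was 0.11 without H28 and 0.13 with it, against -0.01 over all genes. Old arrays lay wholly above young arrays for 4 members besides H28, or 8.7%, against 3.8% of all gene names. These were Ddx58, Ifi47, Igtp and Isg20. A further count gave 7 members besides H28, or 15.2%, as higher at an unadjusted p under 0.05, against 4.7% of all genes, and old arrays lay wholly below young arrays for 1 member, Mx1, or 2.13%, against 2.06%. The lowest adjusted p in limma among the 46 was 0.165, on a dim probe of Ddx58 and for Mx1 it was 0.262.

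The precision allowed limits to be set on these differences. For 38 of the 46 members, the 95% interval ended below a 2-fold rise, and for 22 it ended below a 1.5-fold rise. Within slide 1 the median difference of the 46 was 0.04, and within slide 2 it was 0.23. In all, 20 of the 46 were above 0 on both slides and 8 below 0 on both. Scaling to the median of each array added 0.12 to every gene, so that 36 of the 47 members then lay above 0, while the median over all genes moved to 0.10.

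**Figure D2:**
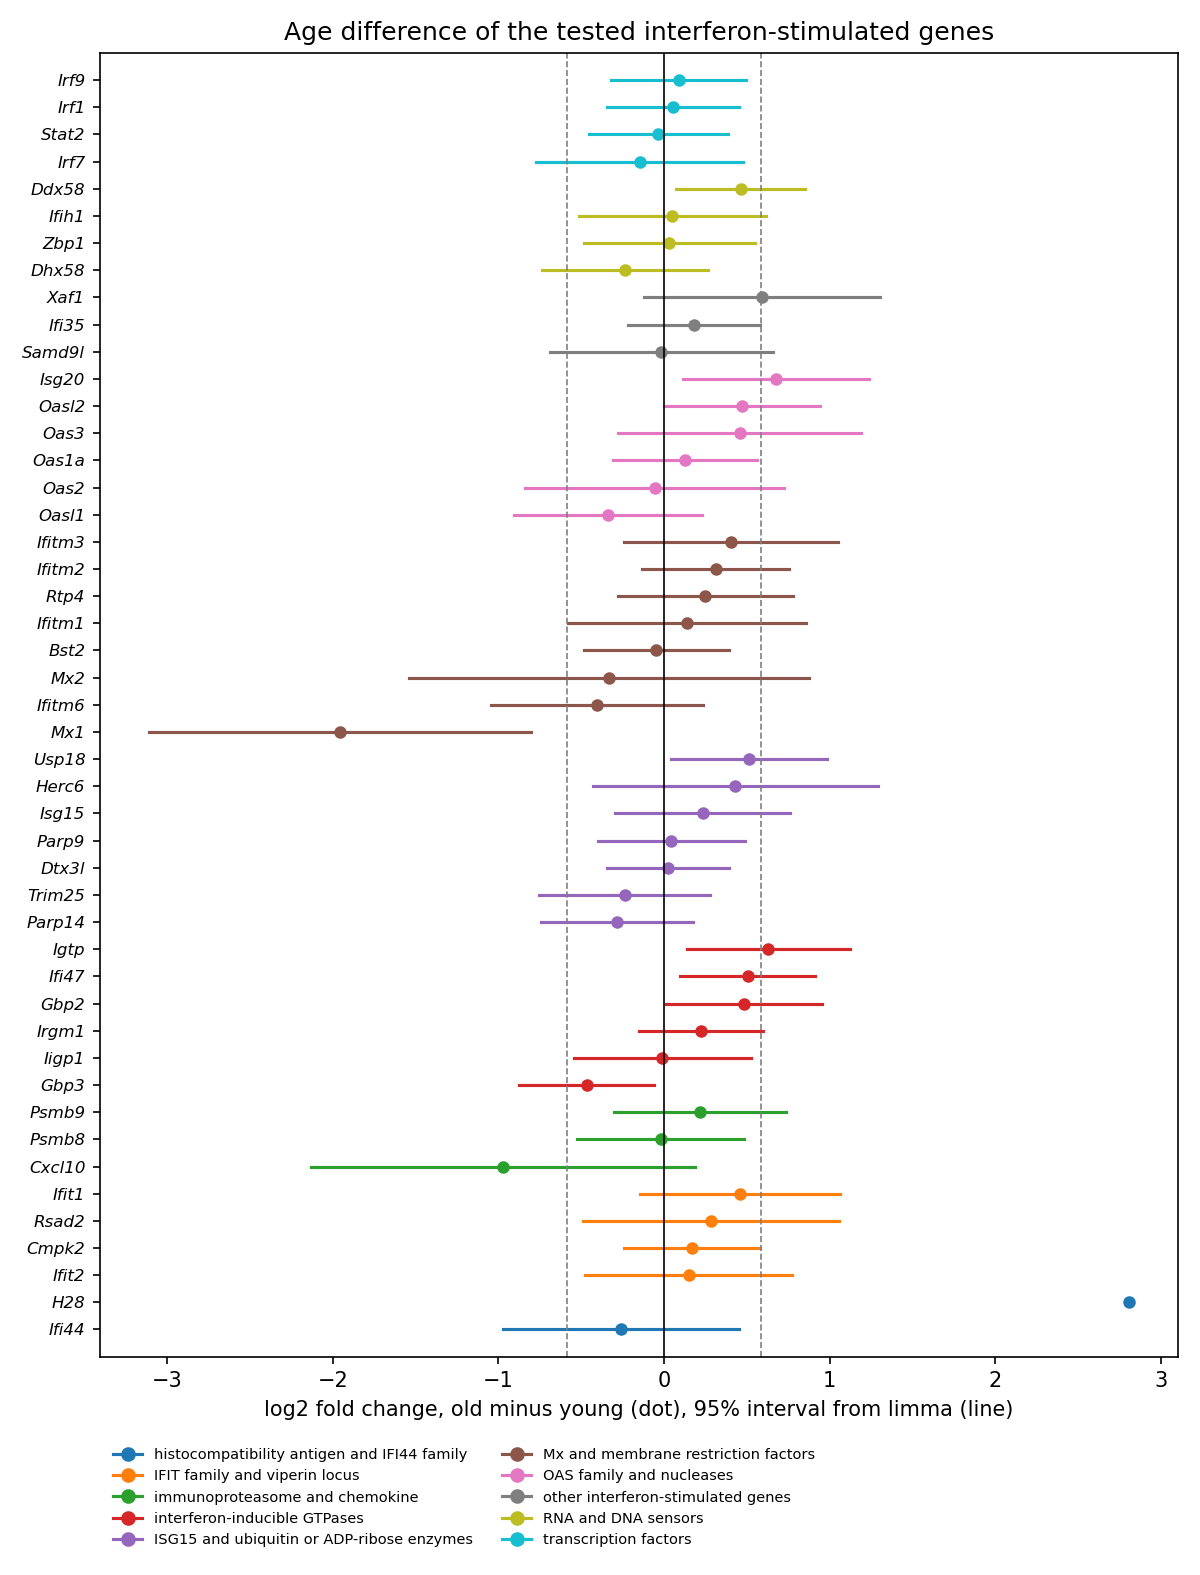
Difference in log2 signal between old and young CMPs for the 47 tested members, grouped and coloured by role, as dots with 95% intervals from limma as lines. Dashed lines mark a 1.5-fold difference either way. H28, shown without an interval because it was listed for its difference, stands at 2.80, and the other members lie between Mx1 at -1.96 and Isg20 at 0.68. With normexp correction, not shown here, H28 differed by 0.61 and Mx1 by -0.48.

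Among the transcription factors of the response, no difference by age was called. Stat2, which with Irf9 carries the type I signal to DNA, had log2 signals of 2.40, 2.35, 1.83 and 2.06 on the young and 2.27, 2.07, 2.18 and 1.97 on the old arrays, a difference of -0.03 (95% interval -0.46 to 0.39). The ages overlapped, and the sign of this difference turned with scaling to the median. Irf9, the DNA-binding partner of the STATs, differed by 0.09 (95% interval -0.32 to 0.50). Irf1, a factor induced by interferon gamma, differed by 0.05. Irf7, which amplifies the production of type I interferon, differed by -0.15 (95% interval -0.77 to 0.48), and by 0.06 after normexp correction. The intervals of Irf9 and Stat2 thus ended below a 1.5-fold rise.

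Further upstream, no interferon receptor was called. The differences of all 5 tested receptor genes lay below 0, under each of the 4 scalings and background corrections tried. Ifngr2, the signalling chain of the interferon gamma receptor, had log2 signals of 2.26, 2.27, 2.23 and 1.99 on the young and 1.71, 1.52, 1.38 and 1.68 on the old arrays. The ages did not overlap, and the difference was -0.61 (adjusted p = 0.301 in limma). The differences were -0.40 for Ifnar1, -0.22 for Ifnar2, -0.18 for Ifngr1 and -0.38 for Il10rb, a chain shared by the receptors of interleukin 10 and of type III interferons. By limma, 2 of the 5, Ifngr2 and by a dimmer probe Ifnar1, were lower at an unadjusted p under 0.05, against 3.41% of all gene names.

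The wider pathway was read from lists of ligands, receptors, kinases and adaptors, inhibitors and further interferon-stimulated genes, 148 genes in all, of which 134 were on the array and 119 were tested. None was called higher and 1 was called lower by limma, against 0.207% and 0.0432% of all gene names. At an unadjusted p under 0.05, 10 were higher, or 8.4%, against 4.7% of all gene names, and 13 were lower, or 10.9%, against 3.41%. Old arrays lay wholly above young arrays for 11 of the 119, or 9.24%, against 3.8%, and wholly below for 11, also 9.24%, against 2.06%. In all, 50 were above 0 and 69 below, and the median was -0.05. Among the 72 further interferon-stimulated genes alone, 31 were above 0 and the median was -0.03. Scaling to the median put 50 of these 72 above 0, with a median of 0.09, close to the 0.10 of all genes under that scaling.

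The called pathway gene was Pyhin1, a member of the interferon-inducible family of DNA-binding HIN proteins. On the probe that was called it had log2 signals of -2.30, -2.91, -3.33 and -3.68 in young and -6.47, -5.88, -6.58 and -4.66 in old mice. The ages did not overlap, and the probe was well above background on 4 young arrays but on only 1 old array, so that most of the old values were background and the probe passed the filter through the young group, where it was high. The fitted difference, whose size depends on how background was set, was -2.84 (adjusted p = 0.0463 in limma), and it was -2.26 and -2.37 on the other tested Pyhin1 probes, which were not called. No pathway gene was called when any array other than old array 5 was left out. Pyhin1 had been put on the list with its result known, so its call is no independent sign of a direction.

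Some pathway genes without a call did not overlap between the ages. Plscr1, an interferon-induced phospholipid scramblase, had log2 signals of 3.52, 3.96, 3.20 and 3.56 in young and 4.66, 4.37, 4.63 and 4.76 in old mice, a difference of 1.05 (adjusted p = 0.115 in limma) with no overlap. Socs3, a feedback inhibitor of JAK kinases, differed by 0.69 (adjusted p = 0.263) with old arrays above young. Ifi203, another HIN gene, differed by -1.04 (adjusted p = 0.173) with old arrays below young. These genes were picked from the lists after their values were seen.

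The IFIT proteins bind foreign RNA and block its translation, and viperin, encoded by Rsad2 beside Cmpk2, makes a nucleotide that ends viral RNA chains. All 4 tested genes of this class lay above 0, with a median difference of 0.23 and a range of 0.15 to 0.46, and none was called. Ifit1 was well above background on 1 young and 3 old arrays and differed by 0.46 (95% interval -0.15 to 1.06). Cmpk2 differed by 0.17 and Ifit2 by 0.15. Rsad2 had log2 signals of -1.54, -2.06, -3.22 and -2.65 in young and -1.80, -1.96, -2.55 and -2.04 in old mice. The ages overlapped, young arrays 3 and 4 on slide 1 were higher than young arrays 5 and 6 on slide 2, and the difference was -0.38 within slide 1 and 0.94 within slide 2. Ifit3 was well above background on 0 of 8 arrays and was not tested.

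Isg15 is a ubiquitin-like protein that is attached to other proteins during the response, and its transcript is among the most sensitive readouts of type I interferon. Its log2 signal was 1.38, 0.96, 0.52 and 0.80 in young and 1.30, 1.49, 1.0 and 0.80 in old mice. The ages overlapped widely, and the difference was 0.23 (95% interval -0.30 to 0.76, adjusted p = 0.998 in limma). Usp18, the protease that removes Isg15 and dampens the type I receptor, had values of -0.96, -0.66, -0.96 and -0.41 in young and -0.14, -0.58, -0.30 and 0.08 in old mice. Young array 6 lay within the range of the old arrays, and the difference was 0.52 (95% interval 0.04 to 0.99, adjusted p = 0.70 in limma). Of the 7 members that carry Isg15, ubiquitin or ADP-ribose chemistry, 5 lay above 0, with a median of 0.04. Trim25, the ubiquitin ligase of the sensor RIG-I, differed by -0.24, and the ADP-ribosyltransferases Parp9 and Parp14 by 0.04 and -0.28. Dtx3l, the ligase that pairs with Parp9, differed by 0.02 (turning below 0 with quantile normalization), and Herc6, the mouse ligase for Isg15, by 0.43.

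Among the Mx and membrane restriction factors, Mx1 had the largest difference, in the direction opposite to H28. Mx1 belongs to the dynamin-like GTPases, and whether these mice make a working protein from it was not tested. Its log2 signal was -2.79, -2.36, -2.50 and -4.08 in young and -4.28, -4.22, -6.32 and -4.73 in old mice. Every old array lay below every young array, though young array 6 came close to old arrays 2 and 3. The difference was -1.96 (95% interval -3.11 to -0.80, adjusted p = 0.262 in limma), and it was -2.73 within slide 1 and -1.19 within slide 2. Without old array 4, which was not well above background, it was -1.48. Its size depended on how background was set. With normexp correction it was -0.48, where Gbp3 differed by -0.52 and Cxcl10 by -0.88. Mx2, its neighbour on chromosome 16, differed by -0.33 with overlapping ages.

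The remaining genes of this class encode membrane proteins that hinder the entry or release of virus. Ifitm1 differed by 0.14, Ifitm2 by 0.31, Ifitm3 by 0.40 and Ifitm6 by -0.41, and these lie in 1 cluster on chromosome 7 with Irf7. Ifitm3 had log2 signals of 5.66, 6.18, 5.97 and 6.00 in young and 6.96, 6.76, 5.94 and 5.76 in old mice, so that old arrays 2 and 3 were high and old arrays 4 and 5 lay within the young range. Bst2, the tether that holds budding virus, differed by -0.05 (above 0 with scaling to the median), and Rtp4 by 0.25. The class had 4 of 8 genes above 0 and a median of 0.05.

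The OAS enzymes make the second messenger that switches on RNase L. Of the 6 members of this class, 4 lay above 0, with a median of 0.29. Isg20, an exonuclease that degrades single-stranded RNA, had the largest difference above 0 of the members besides H28, each taken by its brightest probe. Its log2 signal was 1.96, 1.81, 1.68 and 1.73 in young and 3.06, 2.72, 2.06 and 2.04 in old mice. No old array overlapped the young range, but old arrays 4 and 5 lay just above it. The difference was 0.68 (95% interval 0.11 to 1.24, adjusted p = 0.607 in limma), with 0.68 within each slide and 0.71 on its other probe. Without old array 2 it was 0.48.

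Oasl2 differed by 0.47 (adjusted p = 0.784 in limma) and its neighbour Oasl1, which restrains translation of Irf7, by -0.34. Oas3 differed by 0.46, Oas1a by 0.13 and Oas2 by -0.06, and the signs of Oas1a and Oas2 turned under at least 1 other scaling or background correction. Oas2 had values of -1.47, -1.37, -2.53 and -2.34 in young and -1.56, -1.50, -2.63 and -2.26 in old mice. Within either age the arrays split into a high and a low pair, and this split was wider than the difference between the ages.

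Ddx58 encodes RIG-I, the sensor of viral RNA with uncapped ends. Its brighter probe had log2 signals of 0.50, 0.36, 0.53 and 0.37 in young and 0.76, 0.69, 0.99 and 1.17 in old mice. The ages did not overlap, and the difference was 0.46 (95% interval 0.07 to 0.85, adjusted p = 0.617 in limma), with 0.44 within slide 1 and 0.48 within slide 2. A dimmer probe, well above background on 1 young and 4 old arrays, had values of -5.22, -5.10, -4.48 and -5.54 in young and -3.52, -3.66, -4.27 and -4.11 in old mice. This probe passed the filter through the old group, where it was high, and its fitted difference of 1.20 (adjusted p = 0.165 in limma) was taken against young values mostly at background. Of the other sensors, Ifih1 (MDA5) differed by 0.05, Dhx58 (LGP2) by -0.24 and the nucleic acid sensor Zbp1 by 0.03, a sign that turned with normexp correction.

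The interferon-inducible GTPases, which attack the vacuoles of intracellular pathogens and respond above all to interferon gamma, had a median difference of 0.35, with 4 of 6 tested genes above 0. Igtp had log2 signals of 1.38, 1.72, 1.92 and 2.18 in young and 2.73, 2.19, 2.29 and 2.51 in old mice. The lowest old array, 3, lay just above the highest young array, 6. The difference was 0.63 (95% interval 0.14 to 1.12, adjusted p = 0.532 in limma), with 0.96 within slide 1 and 0.30 within slide 2.

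Ifi47, a GTPase of the same family, had log2 signals of 3.39, 3.75, 3.71 and 3.94 in young and 4.31, 4.01, 4.17 and 4.32 in old mice. Its ages did not overlap, and the difference was 0.51 (95% interval 0.10 to 0.91, adjusted p = 0.568 in limma), with 0.67 within slide 1 and 0.34 within slide 2. Irgm1, the regulator of the family and a neighbour of Ifi47 on chromosome 11, differed by 0.22 and Iigp1 by -0.01.

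The guanylate-binding proteins did not share a direction. Gbp2 had log2 signals of 0.10, 0.15, 0.70 and 0.76 in young and 0.95, 0.70, 0.92 and 1.09 in old mice, a difference of 0.48 (adjusted p = 0.767 in limma). Gbp3, which lies beside it on chromosome 3, had values of 2.05, 2.39, 2.30 and 2.37 in young and 1.67, 1.72, 1.71 and 2.13 in old mice, a difference of -0.47 (adjusted p = 0.635 in limma). The ages overlapped in both genes, by old array 3 with young arrays 5 and 6 for Gbp2 and by old array 5 with young array 3 for Gbp3. Gbp6 was well above background on 2 young and 0 old arrays and was not tested.

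Of the remaining members, Psmb8 and Psmb9 are subunits of the immunoproteasome, which cuts peptides for presentation, and they differed by -0.02 and 0.22. Cxcl10, a chemokine for T cells, had log2 signals of 2.14, -0.31, 0.13 and 0.33 in young and 0.31, -0.33, -1.30 and -0.27 in old mice. Young array 3 was far above the rest, and the difference of -0.97 (adjusted p = 0.920 in limma) was -0.45 without it. Xaf1, a promoter of apoptosis, had values of -0.72, -0.41, -0.01 and -0.77 in young and 0.82, 0.47, -0.42 and -0.41 in old mice. Its difference of 0.59 (adjusted p = 0.926 in limma) rested on old arrays 2 and 3, and old arrays 4 and 5 lay within the young range. Ifi35 differed by 0.18 and Samd9l, a restriction factor for poxviruses, by -0.02.

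**Figure D3:**
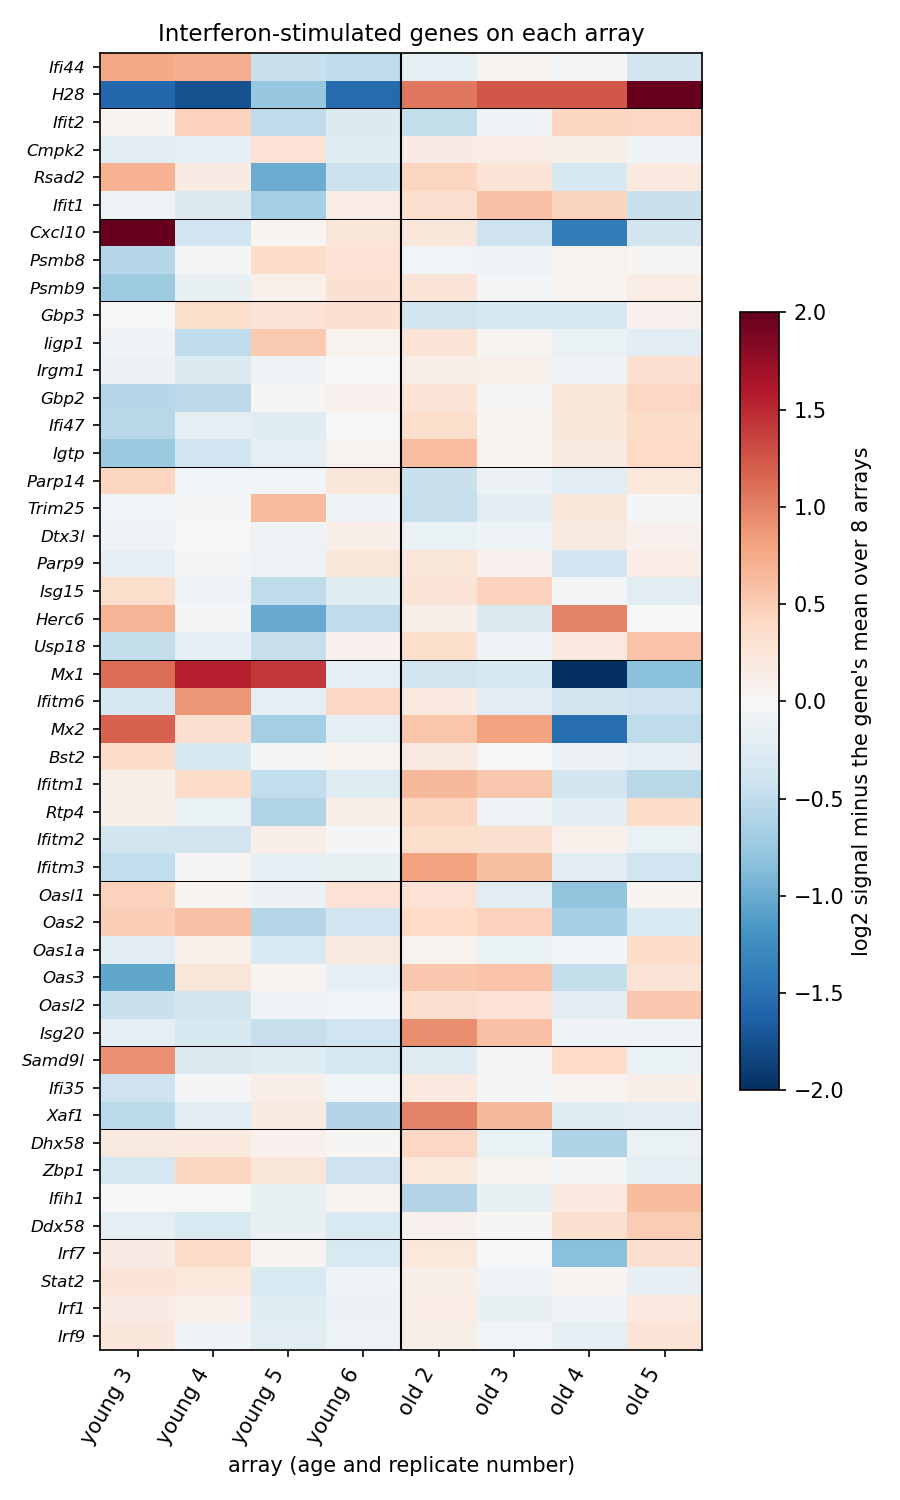
Log2 signal of each tested member (rows, grouped by role) on each array (columns) minus the mean of the gene over the 8 arrays, with the colour scale ending at 2 either way. The H28 row divides by age, whereas rows such as Rsad2, Herc6, Oas2 and Ifitm3 vary within an age.

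The variation among arrays of 1 age thus had patterns of its own. In the young group, Ifi44, Rsad2, Herc6, Isg15, Stat2 and Oas2 were higher on arrays 3 and 4 of slide 1 than on arrays 5 and 6 of slide 2. For Ifi44 and Rsad2, slide 2 minus slide 1 was -1.21 and -1.14 in the young group, and -0.05 and 0.18 in the old group. In the old group, Ifitm1, Ifitm3, Isg20, Xaf1 and Oas2 were higher on arrays 2 and 3 than on arrays 4 and 5, a split that crossed the slides. The median deviation of the 46 members other than H28 from their own means was -0.06, -0.03, -0.13 and -0.05 on the young arrays and 0.22, 0.01, -0.07 and 0.04 on the old arrays. Old array 4 thus lay within the young range and old array 2 was the highest of all 8. H28 itself did not follow this order, since its highest value was on old array 5.

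**Figure D4:**
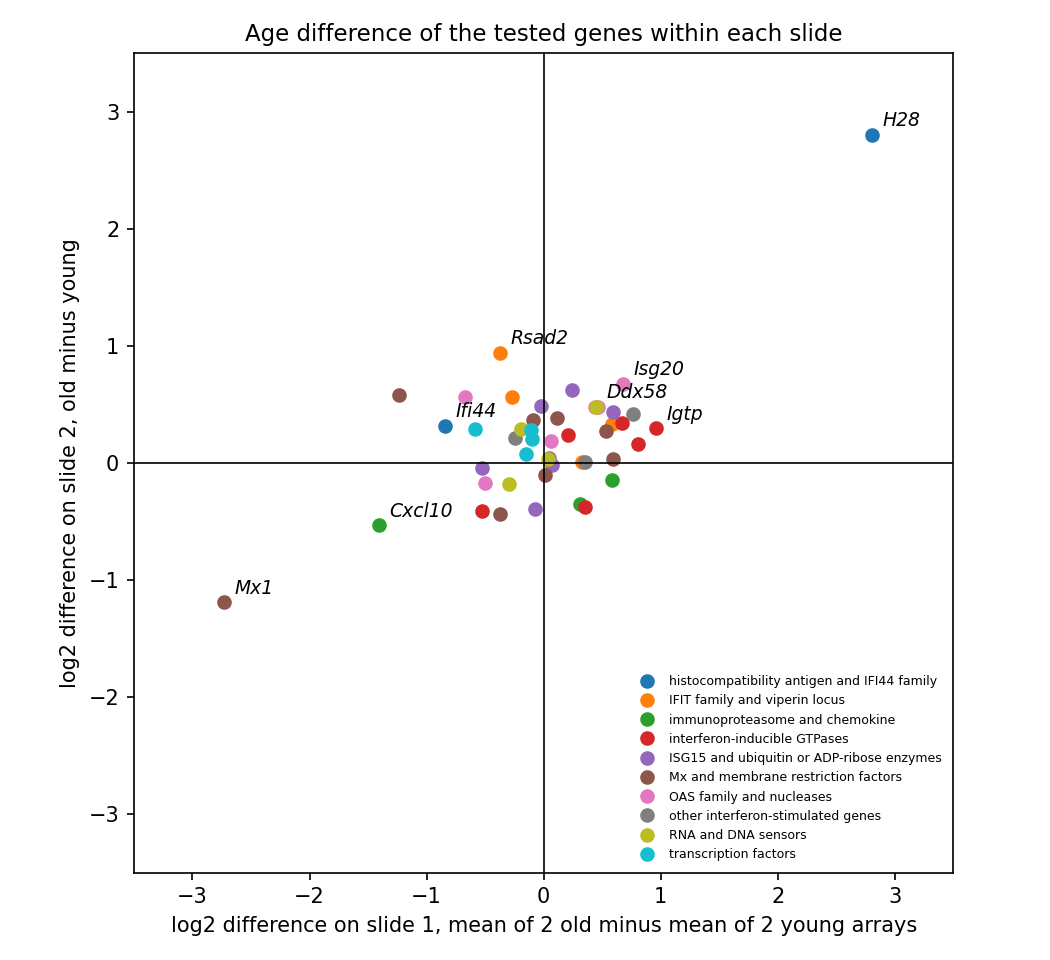
Difference in log2 signal between old and young arrays within slide 1 (horizontal) and within slide 2 (vertical), each the mean of 2 old minus the mean of 2 young arrays, for the 47 tested members coloured by role. H28 lies at 2.81 and 2.80, far from the other genes, and Mx1 lies at -2.73 and -1.19. Both distances depend on how background was set. Most members lie within 1 log2 unit of 0 on both axes.

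Members that lie next to each other in the genome did not share the difference of H28 or, in several cases, a direction. Taking each gene by its brightest probe, 28 members fell into 11 clusters in which neighbours were at most 500 kb apart. H28 and Ifi44 on chromosome 3, Gbp2 and Gbp3 on the same chromosome, and Oasl1 and Oasl2 on chromosome 5 each held 1 gene above and 1 below 0. Mx1 and Mx2 on chromosome 16 were both below 0. Members with the response element in their promoter had a median difference of 0.23, with 9 of 13 tested genes above 0, and members with a promoter but without it had a median of 0.14, with 17 of 24 above 0. Of the 13 members with 2 or more tested probes, 9 had all of these on the same side of 0.

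The identity of the sort and the cell types that could add interferon signal were read from marker lists. All 9 markers of the CMP gate and of myeloid progenitors on the array, among them Cd34, Kit and Mpo, were well above background on 8 of 8 arrays. Their summed signal, in multiples of each array's 75th percentile, was 877 to 1199 in young and 681 to 816 in old mice, with 2 of 9 genes above 0 and a median difference of -0.42. The sum of plasmacytoid dendritic cell markers was 200 to 345 in young and 198 to 325 in old mice, and 0 of its 7 tested genes lay above 0 (2 of 7 after scaling to the median). For monocytes and macrophages, the sums were 75.2 to 104 in young and 54.0 to 71.3 in old mice with 0 of 6 above 0. Megakaryocyte markers had 14 of 14 genes above 0, a median of 1.10 and sums of 101 to 200.2 in young and 289 to 384 in old mice, and 1 of the 14, Gp9, passed the adjusted threshold in limma while 13 did not. Sums of stem cell markers were 17.5 to 22.9 in young and 26.9 to 32.9 in old mice, with 4 of 8 tested genes above 0. The brightest of them, Meis1 and Mycn, weigh most in this sum and differed by 0.65 and 0.89. Ly6a, Procr, Mllt3 and Fgd5 went the other way, with -0.73 for Ly6a and -0.30 for Procr, so the list had no shared direction. The part of these lists in the values of H28 or of any other member was not tested.

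Over the whole array, the 75th percentile of the intensity was 352 to 565 in young and 290 to 518 in old mice, and 55.6% to 63.2% of probes were well above background in the former and 57.3% to 60.6% in the latter. No spot was saturated. Array data have no sequencing depth, and precision depends on how many arrays there were and on how far a signal rose above background.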

How the data were processed

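The authors labelled RNA of each sample with 1 dye (Cy3), hybridized it to Agilent mouse arrays and extracted spot values with the software Feature Extraction, version 10.7.3.1. The deposited intensity of each spot is linear and background-corrected by that software, which also flags saturated spots, outliers and spots well above background. A second deposited file holds the authors' log2 values after a 75th percentile shift and baseline centring, which served as an alternative only. All of its sample columns belong to the 8 arrays. Probe coordinates per the file headers are those of mm9, and gene names are those of the array design.

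From the intensities of 59305 spots, log2 values minus the 75th percentile of the array were computed. Outlier spots were left out, spots of a probe were averaged, and a probe was tested if well above background on at least 4 of 8 arrays (33476 probes). Tests used limma 3.58.1 (lmFit and eBayes, with age as the only term) in R 4.3.3 with the package data.table (version 1.17.8), adjusted by Benjamini-Hochberg over all tested probes. Probes well above background were counted as such where most of their spots were marked. Each gene is represented by its tested probe with the highest mean. Intervals are 95% intervals from limma. On simulated data for this comparison, with 33432 probes and 200 changed, the step recovered 130, or 65%, with 5 false calls. The changes put in were 2-fold or larger, so this share does not hold for smaller differences.

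The members, the pathway lists and the marker lists were chosen with earlier results of these data known. Genes named were H28, every called member, the 5 with the largest and the 5 with the smallest difference, the brightest member of each role, the core signalling genes, called pathway genes, probes within 200 kb of H28, and other members by role. Some results under this rule are not reported here. The labels' numbers pair no animals. The study states that mice were analysed individually, but not which array is which mouse, so p-values measure the spread between arrays. Alternatives covered background correction (normexp, offset 50), scaling, the deposited log2 values, filters, the probe of a gene, the methods' t-test, limma options, blocks by slide or number, single slides and leaving out each array.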

Additional observations from a re-analysis of the deposited data

Results flagged for a closer look

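Each group of 4 arrays was searched for a single array that stood far from the others, measured as the gap to the nearest array divided by the range of the group, and compared with Dixon's 95% critical value. Of 94 groups examined, 4 passed it, where chance passes about 1 in 20. For Cmpk2 in the young group, array 5 was high at -1.38 with the nearest at -1.83, a ratio of 0.844. For Samd9l in the young group, array 3 was high at -0.25 with the nearest at -1.41, a ratio of 0.909. For Trim25 in the young group, array 5 was high at 5.48 with the nearest at 4.83, a ratio of 0.903. For Gbp3 in the old group, array 5 was high at 2.13 with the nearest at 1.72, a ratio of 0.896. H28 passed in neither group.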

How the results depend on the processing

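H28, which was listed for its call on these arrays, was called under 18 of the 21 alternatives that had a test, a description and no independent support. It was not called, and no member was called higher (0), with normexp correction, where its difference was 0.61, and with the methods' t-test after Benjamini-Hochberg adjustment, which called 0 genes in all. With the filter that asks for a signal well above background on all 8 arrays the count was also 0, because H28 was then not tested. With array weights it was 2, as Ddx58 was called too. A gene was called by any of its probes, and the dimmer Ddx58 probe had passed the filter through the old group, where it was high. This call is therefore no independent support for a rise alongside H28. No alternative called a member lower. The median difference of the members was 0.24 with a shift to the median of each array and 0.24 within slide 2. Leaving out each array in turn gave 1 to 1 members called higher and 0 to 0 lower, a median of 0.04 (without young array 5) to 0.17 (without young array 4), 28 to 33 members above 0, an H28 difference of 2.58 to 3.02, and 0 to 1 further pathway genes called. The number of pathway genes called was 2 with normexp correction and with array weights, 3 with an intensity trend and robust variances, and 0 with quantile normalization, the deposited log2 table, no filter, the filter on all 8 arrays, the mean of a gene's probes, the methods' t-test, the replicate block and the slide block. Samples with the same number did not deviate together (r of -0.09, -0.14 and 0.15 for numbers 3, 4 and 5). With the replicate number as a block, 1 member was called, the H28 difference was 2.87 and the member median 0.09, and over all genes 10 were called higher and 1 lower instead of 48 and 10. Other settings moved these counts over all genes between 0 and 128 higher and between 0 and 46 lower. Signal over background is a limit: H28 in young mice, Ifit3 and Gbp6 were too dim for a fold change.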
